A study of Mus musculus with 22 samples.

Results

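The striatum of mice was compared at 24 h and at 12 h after thyroid hormone (TH), using replicates 1, 3 and 4 at 24 h and replicates 1 to 4 at 12 h. These are 7 of the 22 libraries of the series, and 24 h replicate 2 was left out because it carries the markers of cortex. Genes on chromosomes 1 to 19 were tested where their mean normalised count over the 7 libraries exceeded 10, which kept 15237 of the 55341 genes in the count table. A normalised count, as printed here, is the count of a gene divided by the effective size of its library. It is then multiplied by the mean effective size of the 10 striatum libraries. For the filter, effective sizes and their mean came from the 7 libraries alone.

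The RNA-seq libraries of the series came from striatum and white adipose tissue. Every striatum library used here was labelled as wild-type, C57BL/6J, male and 8 weeks old. The labels of the TH libraries name the hormone and the time of 12 h or 24 h, and the study's overview describes a single intraperitoneal injection of T3 and T4. The labels of the 2 control libraries of striatum (replicates 3 and 6) name propylthiouracil (PTU) for 2 weeks, a drug that stops the thyroid from making TH, whereas those of the TH libraries do not mention PTU and the overview lists no hypothyroidism procedure for striatum. Whether the TH animals had been made hypothyroid is therefore not known from these sources. Mice sampled at both times received the hormone, so the comparison describes the course of expression after the injection and not the response to TH itself. The labels do not state the hour of the day at which tissue was taken or which dissection each library came from.

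T3 enters the nucleus and binds the receptors encoded by Thra and Thrb, which sit on DNA with RXR partners at doublets of the half-site AGGTCA and activate transcription once the hormone is bound. Genes that the receptors activate directly can respond within hours, and the regulators among their products then drive a secondary response. According to the study, binding by the receptors is not enough on its own for activation. The striatum consists mostly of GABAergic projection neurons that carry dopamine receptors, with smaller numbers of interneurons, and it is crossed by bundles of myelinated axons. In the brain TH is best known for its role in the maturation of neurons and of the oligodendrocytes that make myelin.

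The 12 h libraries held 9.42 to 10.2 M counts in total and the 24 h libraries 8.06 to 9.81 M. Mitochondrial genes took 14.0% to 16.2% of the counts at 12 h and 17.5% to 18.3% at 24 h, with no overlap. The libraries also fell into 2 types by sex-linked genes, although the labels describe males. Xist, the RNA that silences an X chromosome in females, had 25287 to 30088 normalised counts in 12 h replicate 1 and in the 3 libraries at 24 h, and 2.73 to 10.9 in 12 h replicates 2, 3 and 4. The Y-linked Ddx3y had at most 1.19 in the former and 186 to 223 in the latter. The 3 libraries at 24 h were thus all of the type with Xist, as was only 1 of the 4 at 12 h. Sex of the library and time cannot be told apart, except for what the contrast of 12 h replicate 1 with the 24 h libraries gives.

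The genes higher at 24 h than at 12 h included Opalin, Mog, Tspan2 and Enpp6 of the myelin-forming cells, the peptidase gene Ace and the calmodulin-binding proteins Pcp4 and Strn. Those lower at 24 h included the calcium-binding protein Calb2, the axonal proteins Ntng1 and Nrp2, the synaptotagmin Syt17 and the serotonin receptor Htr1a. Of the 15237 genes, 52 were called (0.341%), 21 of them higher at 24 h (0.138%) and 31 lower (0.203%), at an adjusted p under 0.05 in edgeR's quasi-likelihood test with Benjamini-Hochberg adjustment. The smallest adjusted p was 0.0217. At an unadjusted p under 0.05 there were 3256 genes (21.4%), of which 1462 were higher and 1794 lower. The libraries of the 2 times did not overlap for any of the 52 called genes, and they did not overlap for 2578 genes in all (16.9% of those tested), split into 8.49% higher and 8.43% lower at 24 h. The calls were of moderate size, with a median absolute log2 change of 0.82 and a smallest of 0.48. Only 4 of the higher and 15 of the lower genes changed by more than 1 on the log2 scale. By the annotation, 47 of the 52 genes encode proteins and 5 do not, 2 of these being processed pseudogenes (Rab7-ps1 and Rpl31-ps8) whose reads can be shared with their parent genes. Exons of 15 of the called genes overlap a gene on the opposite strand, and their reads cannot be told apart without the strand setting, which is not given in the sources used here.

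The number of calls rested on single libraries. Without 12 h replicate 2, 24 h replicate 1 or 24 h replicate 3, edgeR called 0 genes, while 2449, 1776 and 2315 genes had an unadjusted p under 0.05 and the adjusted p reached no lower than 0.0984, 0.271 and 0.0758. DESeq2 on all 7 libraries called 803, with 2661 adjusted p-values not given by the tool. Without 12 h replicate 3 there were 15 calls, without 12 h replicate 4 there were 27, without 12 h replicate 1 there were 279, and without 24 h replicate 4 there were 1792. No gene was called in more than 4 of these 7 fits, and 9 genes were called in 4, namely Opalin, 1700047M11Rik, 9630013A20Rik, Prex2, Calb2, Ntng1, Tcerg1l, Nrp2 and Cbln2. With 24 h replicate 2 kept, 0 genes were called, although 2016 had an unadjusted p under 0.05, and the adjusted p went no lower than 0.156 in edgeR. With the sex of the library as a covariate 22 genes were called, all lower at 24 h, and 2 of these (Pnmal2 and Tcerg1l) were among the 52. In the 4 libraries with Xist alone, 1 at 12 h against 3 at 24 h, 23 genes were called, all lower, and only Ntng1 was among the 52. The log2 changes of the 50 called genes that could be tested there were a median of 0.870 times those over the 7 libraries, and 17 were at least as large. Their direction was fixed in advance, since 12 h replicate 1 lies outside the 24 h libraries for every called gene. Their size is not an independent check either, since these 4 libraries were among the 7 by which the genes were chosen.

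**Figure D1:**
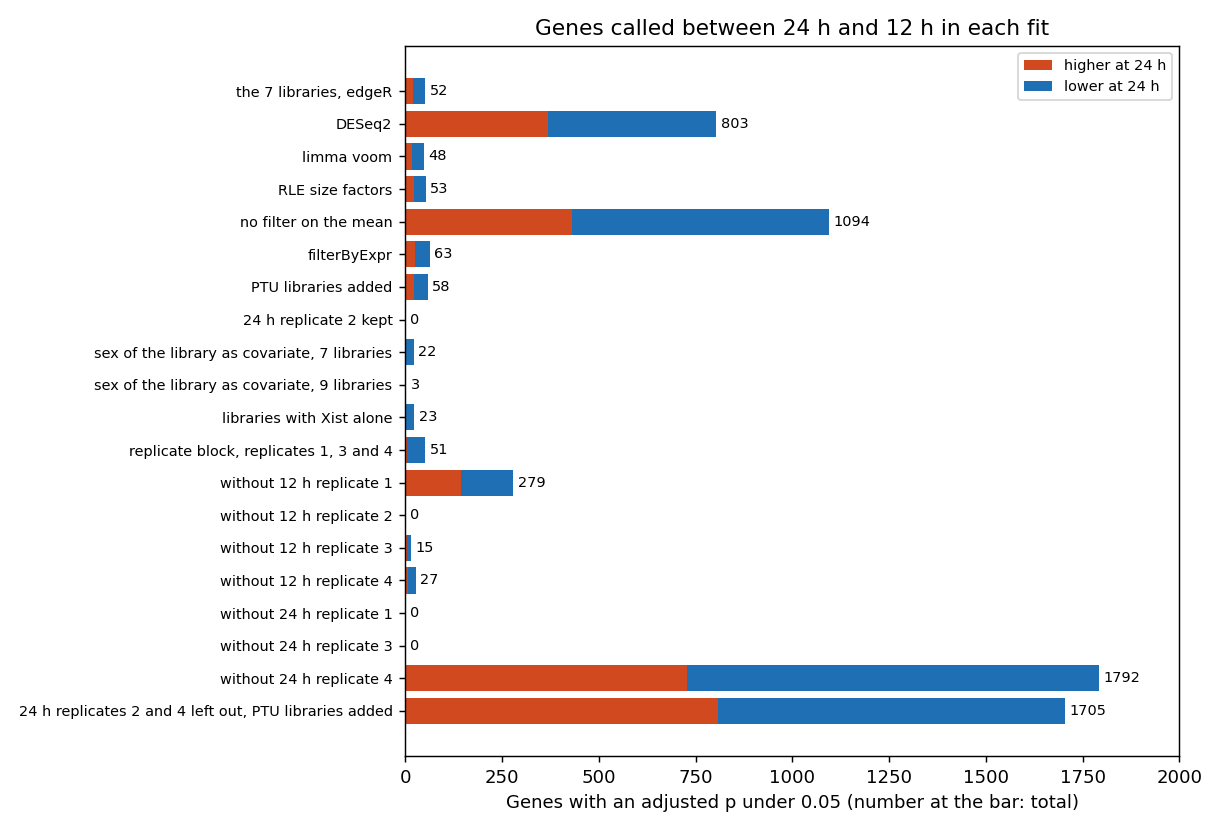
Horizontal bars starting at 0 give the number of genes called in the fit of the 7 libraries with edgeR and in each alternative fit, red for genes higher at 24 h and blue for genes lower, with the total beside the bar. The total is 52 for the 7 libraries, 0 without 12 h replicate 2, 24 h replicate 1 or 24 h replicate 3, and 1792 without 24 h replicate 4.

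The windows before the start of 5 called genes are printed here because the receptors bind the half-site AGGTCA, which can be looked for in them. They are the 250 bases before a RefSeq start (GRCm38.p6), read 5′ to 3′ on the strand of the gene, and capitals mark AGGTCA on either strand, where TGACCT is its reverse complement. Opalin (chr19:41077114-41077363, minus strand) and Mog (chr17:37023399-37023648, minus strand) are the myelin genes with the largest changes. Pcp4 (chr16:96467356-96467605, plus strand), Ace (chr11:105974939-105975188, plus strand, before a second start inside the gene) and Elfn1 (chr5:139907616-139907865, plus strand) hold the half-site, which begins at -164, -50 and -33 from the start. The window before the first start of Ace (chr11:105967698-105967947), which is not printed, held 0 copies of it.
Opalin: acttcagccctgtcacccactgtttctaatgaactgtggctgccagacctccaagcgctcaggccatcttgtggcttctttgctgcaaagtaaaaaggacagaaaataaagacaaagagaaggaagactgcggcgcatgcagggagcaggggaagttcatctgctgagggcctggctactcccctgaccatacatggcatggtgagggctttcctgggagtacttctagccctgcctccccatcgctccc
Mog: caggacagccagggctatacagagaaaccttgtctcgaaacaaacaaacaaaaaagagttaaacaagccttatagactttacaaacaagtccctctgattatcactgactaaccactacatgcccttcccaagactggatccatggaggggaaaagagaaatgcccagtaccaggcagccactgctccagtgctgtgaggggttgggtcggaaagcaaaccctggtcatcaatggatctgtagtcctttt
Pcp4: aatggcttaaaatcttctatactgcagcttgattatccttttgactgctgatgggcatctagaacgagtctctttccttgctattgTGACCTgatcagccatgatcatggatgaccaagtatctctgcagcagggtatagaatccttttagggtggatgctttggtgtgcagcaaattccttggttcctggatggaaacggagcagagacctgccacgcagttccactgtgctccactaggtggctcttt
Ace: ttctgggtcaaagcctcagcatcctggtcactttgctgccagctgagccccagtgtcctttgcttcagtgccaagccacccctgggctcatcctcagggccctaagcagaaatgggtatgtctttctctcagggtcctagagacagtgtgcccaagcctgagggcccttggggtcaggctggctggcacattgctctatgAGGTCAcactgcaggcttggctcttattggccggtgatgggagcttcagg
Elfn1: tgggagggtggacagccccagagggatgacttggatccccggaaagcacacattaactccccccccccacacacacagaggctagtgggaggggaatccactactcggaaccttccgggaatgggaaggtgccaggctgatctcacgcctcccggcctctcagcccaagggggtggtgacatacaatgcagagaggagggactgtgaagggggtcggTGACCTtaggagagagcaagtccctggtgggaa
Of the 52 called genes 37 had an entry among the promoters, and 5 of these held AGGTCA on either strand between 250 bases before and 50 bases after a start (Ace, Pcp4, Bcat1, Elfn1 and Tmem150c), against 18.1% of 27025 genes. The doublet of 2 such half-sites in the same direction with 4 bases of any kind between them occurred in 0 of the 37 and in 0.015% of genes, and the E-box CACGTG, which clock activators bind, in 2 (Bcl6 and Mea1) and in 8.09% of genes. These are matches of letters and not sites.

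Of the oligodendrocyte genes, 4 were called higher at 24 h than at 12 h. Opalin, a transmembrane protein of the myelin loops next to the axon, had the largest rise of all called genes. It lies on the minus strand of chromosome 19 (41061710 to 41077113). Its normalised counts were 36.8, 27.4, 31.7 and 24.6 at 12 h (replicates 1 to 4) and 74.3, 76.2 and 80.3 at 24 h (replicates 1, 3 and 4). The 3 libraries at 24 h stood within a narrow band well above the highest at 12 h. It changed on the log2 scale by 1.34 ± 0.17 (SE), a 2.53-fold rise (adjusted p 0.0395, edgeR). The PTU libraries, with 36.7 and 37.6, lay at the level of 12 h replicate 1, and 24 h replicate 2, which was not in the fit, had 39.2.

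Mog (chromosome 17, 37010743 to 37023398) encodes the myelin oligodendrocyte glycoprotein, an immunoglobulin-like protein on the outer face of the sheath. It had 306, 204, 285 and 265 normalised counts at 12 h and 459, 481 and 496 at 24 h. Again no library at 12 h reached the lowest at 24 h. This amounted to a log2 change of 0.84 ± 0.13 (SE, adjusted p 0.0395, edgeR), and the PTU libraries had 296 and 398, between the highest and lowest of the 12 h libraries for one and between the 2 times for the other. For Mog 24 h replicate 2 had 223, within the range at 12 h. Tspan2, a tetraspanin of oligodendrocytes, had means of 1304 ± 185 at 12 h and 2107 ± 45.9 at 24 h (SD, n = 4 and 3) and its log2 rise was 0.68 ± 0.11 (SE, adjusted p 0.0408, edgeR). Enpp6, a choline phosphodiesterase that marks oligodendrocytes as they form, had means of 474 ± 39.4 and 724 ± 56.4 (SD, n = 4 and 3) and rose by 0.60 ± 0.09 (SE, adjusted p 0.0395, edgeR). For the last 2 genes the PTU libraries stood above all 4 libraries at 12 h, with 1835 and 2162 for Tspan2 and 649 and 795 for Enpp6, whereas 24 h replicate 2 stood below all 4, with 1101 and 304.

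These 4 were the called members of a list of 26 tested genes of the oligodendrocyte lineage, against 0.138% of all genes called higher. The median log2 change of the list was 0.41, beside -0.01 over all genes tested, and 21 of its members had a positive change. At an unadjusted p under 0.05, 17 members were higher, against 9.6% of all genes, and 1, the lipocalin gene Apod, was lower. The 2 times did not overlap for 14 members, all higher at 24 h, against 8.49% of all genes. Among the members that missed the threshold, Ermn, a cytoskeletal protein of oligodendrocytes, had a log2 change of 0.70 ± 0.20 (SE, adjusted p 0.0960, edgeR). The gap-junction gene Gjc3 had 0.66 ± 0.12 (SE, adjusted p 0.0522, edgeR), Mobp 0.67 ± 0.15 (adjusted p 0.0646), the galactolipid enzyme Ugt8a 0.56 ± 0.13 (adjusted p 0.0694) and the myelin regulator Myrf 0.44 ± 0.10 (adjusted p 0.0648). Mbp, myelin basic protein, had 13436, 9604, 12002 and 9991 normalised counts at 12 h and 14995, 16923 and 15866 at 24 h, with separate groups and a log2 change of 0.49 ± 0.12 (SE) at an adjusted p of 0.0743 (edgeR). The transcription factors that mark the whole lineage had values close to 0, with 0.04 ± 0.09 for Olig2 and -0.03 ± 0.10 for Olig1 (SE). The precursor marker Pdgfra had 0.19 ± 0.10 (SE, adjusted p 0.306, edgeR).

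The summed level of the 26 genes was 25992 to 34425 normalised counts at 12 h and 37722 to 42198 at 24 h. It was 31900 and 43839 in the PTU libraries and 20730 in 24 h replicate 2. In the libraries with Xist alone the median log2 change of the list was 0.21, beside 0.0014 over all genes tested. In bulk tissue more oligodendrocytes or axon bundles in the dissected piece and more RNA per cell cannot be told apart.

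**Figure D2:**
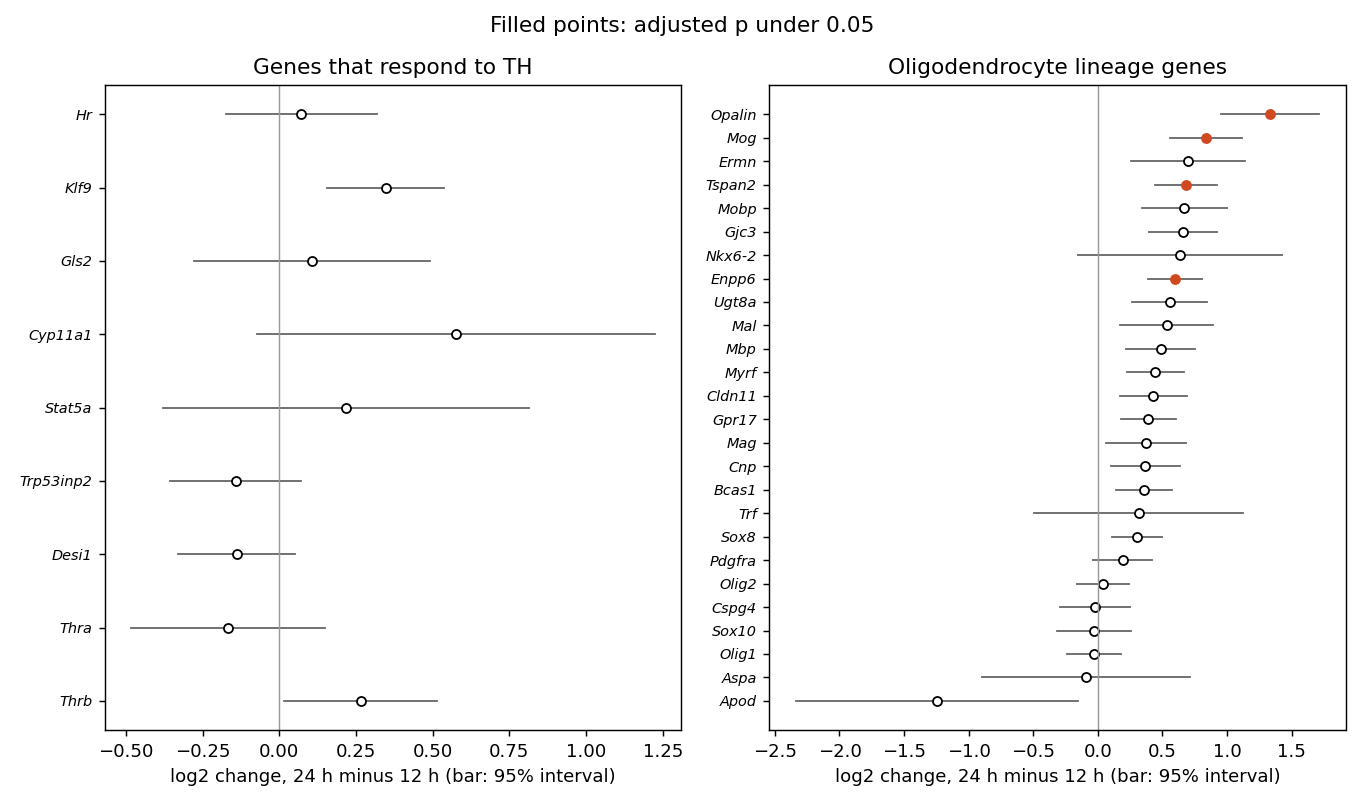
Log2 change between 24 h and 12 h with its 95% interval for 9 genes, among them Hr, Klf9, Thra and Thrb (left), and for the oligodendrocyte list (right), where filled red points have an adjusted p under 0.05. Of the 26 genes on the right only Opalin, Mog, Tspan2 and Enpp6 are filled, while Olig1, Olig2 and Sox10 sit near 0, and none of the 9 genes on the left is filled.

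The other called genes are ordered by what each is known to do, which is background and was not tested as a theme. Ace, the angiotensin-converting enzyme, which striatal projection neurons make as well as vessels, lies on the plus strand of chromosome 11 (105967945 to 105989964), and its exons overlap Gm11651 on the opposite strand. It had 409, 320, 332 and 359 normalised counts at 12 h and 824, 927 and 520 at 24 h. All 3 values at 24 h exceeded those at 12 h, with replicate 4 the closest to them. On the log2 scale the change was 1.08 ± 0.17 (SE, adjusted p 0.0395, edgeR). The PTU libraries had only 92.2 and 80.1, so that the values lay in the order PTU, 12 h, 24 h, but 24 h replicate 2 had 80.7. Cyp2s1, a cytochrome P450 (chromosome 7, 25802475 to 25816913), had the same order. It had 34.6 and 58.4 normalised counts with PTU, 346, 347, 303 and 320 at 12 h, and 670, 683 and 429 at 24 h. The groups were separate and the log2 change was 0.84 ± 0.15 (SE, adjusted p 0.0485, edgeR), while 24 h replicate 2 had 113. These comparisons share the 12 h libraries, so their changes are not independent.

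Pcp4 encodes a small calmodulin-binding protein that projection neurons hold in large amounts. It had 3121, 2733, 2975 and 2639 normalised counts at 12 h and 6334, 6145 and 4207 at 24 h. Here too the libraries were separate and 24 h replicate 4 was the lowest of its group. The log2 change was 0.94 ± 0.13 (SE, adjusted p 0.0395, edgeR), and exons of Pcp4 overlap Igsf5 on its own strand. Strn, a calmodulin-binding scaffold of protein phosphatase 2A, had means of 1830 ± 166 at 12 h and 3382 ± 826 at 24 h (SD, n = 4 and 3), and the log2 rise was 0.87 ± 0.15 (SE, adjusted p 0.0433, edgeR). The PTU libraries were above the 12 h libraries for both genes, with 3578 and 4127 for Pcp4 and 2255 and 3042 for Strn. The 24 h replicate 2 library had 2673 and 1214, within the 12 h range for Pcp4 and below it for Strn.

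Among genes of vessels, Adgrl4, an adhesion receptor of endothelium, had 393, 363, 383 and 379 normalised counts at 12 h and 599, 513 and 689 at 24 h. The values at 12 h were nearly equal, and the PTU libraries (398 and 376) shared their level. It changed on the log2 scale by 0.65 ± 0.11 (SE, adjusted p 0.0408, edgeR). Slco1a4, an organic anion transporter of the blood-brain barrier that can carry TH, had means of 198 ± 10.3 and 302 ± 10.4 (SD, n = 4 and 3), and its log2 rise was 0.60 ± 0.09 (SE, adjusted p 0.0395, edgeR). It was the only called member of 21 tested vessel genes, a list without Adgrl4, against 0.341% of all genes. The median log2 change of the 21 was 0.08, with 14 changes positive and 7 negative. At an unadjusted p under 0.05, 4 were higher and 0 lower, against 9.6% and 11.8% of all genes. The times were separate for 6, all higher at 24 h, against 8.49% of all genes. The endothelial receptors Kdr and Flt1 had log2 changes of 0.42 ± 0.09 and 0.44 ± 0.10 (SE, adjusted p 0.0625 and 0.0631, edgeR).

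A further 3 non-coding genes rose, and 2 of them belonged to the genes with the smallest p-values. The antisense RNA 9630013A20Rik (chromosome 14, 84458639 to 84476424) had 369, 278, 325 and 319 normalised counts at 12 h and 613, 588 and 627 at 24 h, with a log2 change of 0.90 ± 0.10 (SE) at an adjusted p of 0.0217 (edgeR), while 24 h replicate 2 had 229. The lincRNA 1700047M11Rik had 52.9, 60.7, 69.8 and 71.0 at 12 h and 147, 130 and 126 at 24 h, with a log2 change of 1.06 ± 0.14 (SE, adjusted p 0.0395). Both were also higher with PTU than at 12 h, at 488 and 651 for the former and 118 and 143 for the latter. AC132106.1 had 6.29 and 27.7 with PTU, 29.0 ± 6.15 (SD, n = 4) at 12 h and 65.4 ± 5.42 (SD, n = 3) at 24 h, and its log2 rise was 1.16 ± 0.19 (SE, adjusted p 0.0413, edgeR).

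The remaining higher genes had log2 changes between 0.48 and 0.72. Prex2, an exchange factor for the GTPase Rac, had 367, 391, 397 and 329 normalised counts at 12 h and 586, 574 and 587 at 24 h. The 24 h libraries agreed closely, and 24 h replicate 2 with 537 stood apart from the 12 h libraries as well. This amounted to a log2 change of 0.64 ± 0.09 (SE, adjusted p 0.0395, edgeR), and the PTU libraries had 366 and 385. The others were 2010111I01Rik, which encodes an aminopeptidase (log2 change 0.72), Rasgef1b (0.64), Rpl31-ps8 (0.57), Vcl, the adhesion protein vinculin (0.52), the tetraspanin Cd9 (0.52), the peroxisomal carnitine octanoyltransferase Crot (0.49) and the endophilin Sh3gl3 (0.48).

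**Figure D3:**
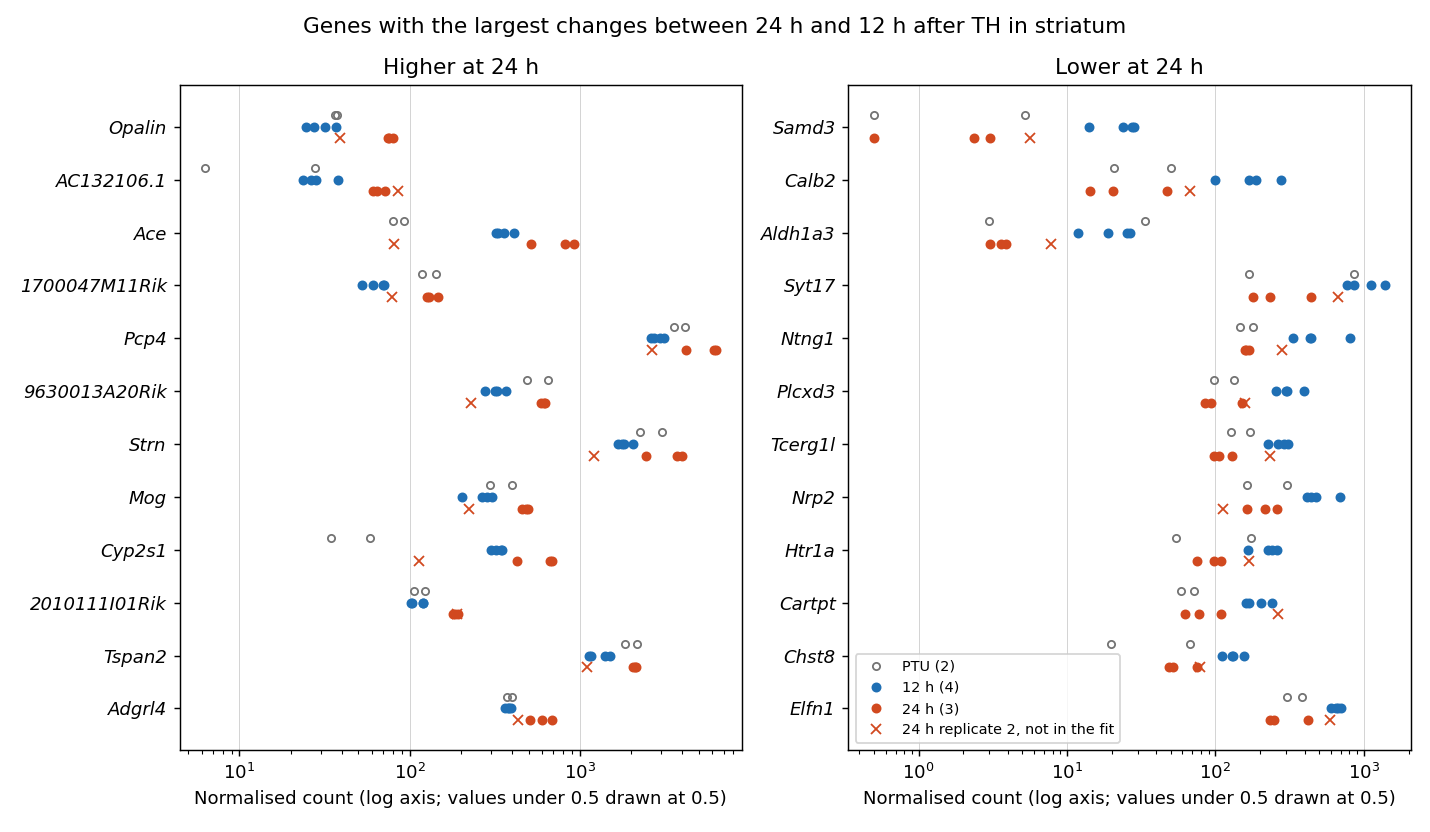
Normalised counts per library on a log axis for the 12 called genes with the largest rise (left) and the 12 with the largest fall (right): open grey circles are the 2 PTU libraries, blue points the 4 at 12 h, red points the 3 at 24 h used in the fit and the red cross 24 h replicate 2. Red and blue points are separate in every row, while the cross lies among or below the blue points on the left for Ace, Pcp4, 9630013A20Rik, Strn, Mog, Cyp2s1 and Tspan2.

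Larger changes were found among the genes that were lower at 24 h. Calb2 encodes calretinin, a calcium-binding protein of some striatal interneurons and of neurons of the thalamus and other regions. It lies on the minus strand of chromosome 8 (110137502 to 110168210). Its normalised counts were 167, 187, 98.8 and 278 at 12 h and 20.5, 14.3 and 47.2 at 24 h. The 12 h libraries were widely spread, but none reached down to the 24 h libraries. On the log2 scale the change was -2.72 ± 0.42 (SE), 6.61-fold lower (adjusted p 0.0395, edgeR). The PTU libraries had 50.3 and 20.8, near the level of 24 h, and 24 h replicate 2 had 67.3.

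Samd3 and Aldh1a3 fell as far, from low levels. Samd3 had raw counts of 15, 28, 31 and 26 at 12 h and of 0, 2 and 3 at 24 h, with a log2 change of -3.66 ± 0.56 (SE, adjusted p 0.0395, edgeR) that rests on few reads. Aldh1a3, an enzyme that makes retinoic acid, had raw counts of 20, 26, 13 and 29 at 12 h and of 4, 3 and 3 at 24 h, with a log2 change of -2.53 ± 0.42 (SE) at an adjusted p of 0.0413. The PTU libraries differed for Aldh1a3, with raw counts of 32 and 3, and had 5 and 0 for Samd3. Neither gene passed the filter on the mean in the libraries with Xist alone.

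Of the proteins that act in the guidance of axons or the adhesion of neurons, Ntng1 (netrin-G1) is a membrane-anchored protein known from thalamic axons and lies on chromosome 3 (109780040 to 110144011). It had 436, 441, 333 and 806 normalised counts at 12 h and 157, 161 and 168 at 24 h. The 24 h libraries were nearly equal, and the PTU libraries with 180 and 146 were close to them, whereas 12 h replicate 4 was far above its fellows. The log2 change was -1.65 ± 0.27 (SE, adjusted p 0.0408, edgeR), and it remained -1.44 in the libraries with Xist alone. Nrp2, a neuropilin that receives semaphorins, had 439, 476, 689 and 417 at 12 h and 163, 258 and 217 at 24 h. Its groups were separate, 24 h replicate 2 had 113, and the log2 change was -1.27 ± 0.20 (SE, adjusted p 0.0395, edgeR). Cdh4, a cadherin, had 730 ± 157 (SD, n = 4) at 12 h and 355 ± 26.3 (SD, n = 3) at 24 h, with a log2 change of -1.05 ± 0.15 (SE) at an adjusted p of 0.0395 (edgeR). The ephrin receptor gene Epha5 changed by -0.81 ± 0.12 (SE, adjusted p 0.0395) and Rgmb, a co-receptor of bone morphogenetic proteins, by -0.61 ± 0.10 (adjusted p 0.0433).

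Next come proteins of synapses and of transmitter signalling. Syt17, a synaptotagmin (chromosome 7, 118380717 to 118448222), had 858, 1115, 1387 and 768 normalised counts at 12 h and 178, 235 and 439 at 24 h. The groups were apart, but 1 PTU library (857) lay within the 12 h range and the other (169) at the level of 24 h. It changed on the log2 scale by -1.87 ± 0.30 (SE, adjusted p 0.0395, edgeR). Elfn1, a postsynaptic protein that binds glutamate receptors of the presynaptic side, had 653, 705, 599 and 673 at 12 h and 234, 249 and 417 at 24 h. The 12 h libraries were close together and above all 3 others, and the log2 change was -1.14 ± 0.18 (SE, adjusted p 0.0395, edgeR). With PTU Elfn1 had 386 and 303, and 24 h replicate 2 had 589.

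Htr1a, the serotonin receptor 1A, had 227, 241, 258 and 166 normalised counts at 12 h and 75.3, 97.6 and 108 at 24 h. The lowest library at 12 h, replicate 4, was still above the highest at 24 h. This amounted to a log2 change of -1.26 ± 0.18 (SE, adjusted p 0.0395, edgeR). The PTU libraries had 174 and 54.4, the former within the 12 h range, as was 24 h replicate 2 with 168. Cartpt, which encodes the neuropeptide precursor CART, had 240, 168, 202 and 160 at 12 h and 62.6, 77.4 and 108 at 24 h, with a log2 change of -1.23 ± 0.20 (SE, adjusted p 0.0413). Its PTU libraries had 58.7 and 72.2, whereas 24 h replicate 2 had 263, above all libraries at 12 h. Grin3a, a subunit of NMDA receptors, changed by -0.70 ± 0.12 (SE, adjusted p 0.0413, edgeR) and was the only called member of 23 tested glutamate receptor genes, whose median was 0.03. Cbln2, a secreted organiser of synapses, changed by -1.12 ± 0.16 (SE, adjusted p 0.0395), and Scg2, the precursor secretogranin II, by -0.55 ± 0.09 (adjusted p 0.0413).

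Tcerg1l, of the transcription elongation regulator family, shared the smallest adjusted p. It lies on the minus strand of chromosome 7 (138208974 to 138397730) and had 288, 310, 227 and 264 normalised counts at 12 h and 106, 97.6 and 129 at 24 h. The spread within each time was small beside the gap between them, and the log2 change was -1.30 ± 0.14 (SE, adjusted p 0.0217, edgeR). The PTU libraries had 170 and 128, and 24 h replicate 2 had 233, within the 12 h range. Plcxd3, a phospholipase-like protein, changed by -1.52 ± 0.21 (SE, adjusted p 0.0395), and Chst8, a sulfotransferase of sugar chains, by -1.17 ± 0.19 (SE, adjusted p 0.0395). The transcriptional repressor Bcl6 had 508, 614, 741 and 703 normalised counts at 12 h and 252, 292 and 381 at 24 h, with PTU libraries at 344 and 232. Its libraries were separate, and it changed by -1.07 ± 0.16 (SE, adjusted p 0.0395, edgeR). The remaining lower genes had log2 changes between -0.87 and -0.51 and included Camk2d (-0.87), the pacemaker channel Hcn3 (-0.82), the amino acid transaminase Bcat1 (-0.62) and the tubulin-modifying enzyme Ttll1 (-0.58).

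Lists of markers of cell types and regions were set beside these changes. Of 40 tested genes of striatal projection neurons, 37 had a positive change, the median was 0.61 and 28 were higher at an unadjusted p under 0.05, against 9.6% of all genes. EdgeR called 0 of them, and the times were separate for 3, all higher at 24 h, against 8.49% of all genes. The dopamine receptor gene Drd1 had 1668, 1129, 1044 and 983 normalised counts at 12 h and 2757, 2824 and 1272 at 24 h. Replicates 1 and 3 at 24 h stood high, while replicate 4 lay among the 12 h libraries. The summed level of the list was 73044 to 104441 at 12 h, and 146534, 159434 and 87215 in replicates 1, 3 and 4 at 24 h. It was 108232 and 148497 with PTU and 29786 in 24 h replicate 2. The median log2 change of the list was 0.26 in the libraries with Xist alone. Ace, Pcp4 and Strn, which are not members of the list, were also highest in replicates 1 and 3 at 24 h. They stood above all 12 h libraries in 24 h replicate 4 as well, but so did all called genes that were higher at 24 h. The 3 list members with separate times did too, so this position cannot set Ace, Pcp4 and Strn apart from the list. The part of the projection neuron level in the change of Ace, Pcp4 and Strn was not tested.

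Of 20 tested genes of cortical excitatory neurons, 18 had a negative change with a median of -0.36, 3 were lower at an unadjusted p under 0.05, against 11.8% of all genes, and 0 were called by edgeR. The vesicular glutamate transporter gene Slc17a7 had 5026, 7731, 9196 and 8175 normalised counts at 12 h and 3442, 2686 and 7599 at 24 h, so that 24 h replicate 4 was again within the range of 12 h. The summed level of the list was 25949 to 35527 at 12 h and 22915, 19337 and 35110 at 24 h, and the median was -0.03 in the libraries with Xist alone. Of 17 tested genes of thalamus, septum, hypothalamus, globus pallidus and hippocampus, Calb2 was called lower and the median was -0.59. At an unadjusted p under 0.05, 7 were lower, against 11.8% of all genes. The summed levels were 2971 to 4945 at 12 h and 2032 to 3110 at 24 h. The second vesicular glutamate transporter gene, Slc17a6, known from thalamus and a member of both lists, had 429, 241, 318 and 222 at 12 h and 97.8, 65.5 and 162 at 24 h, with separate groups and a log2 change of -1.48 ± 0.30 (SE) at an adjusted p of 0.0625 (edgeR). The median of this list was -0.56 in the libraries with Xist alone. Of 17 tested genes of meninges and fibroblasts 16 had a negative change with a median of -0.75, and 0 were called by edgeR. Here 7 were lower at an unadjusted p under 0.05, against 11.8% of all genes. The summed level of that list was 3116 to 10558 at 12 h and 2172 to 4192 at 24 h. Its median was -0.15 in the libraries with Xist alone and ran from -1.20 to -0.49 when 1 library was left out. No tested member of these 4 lists was at 0 in any of the 7 libraries, although only 17 of the 25 genes listed for the other regions passed the filter on the mean. The part of the tissue in the calls of Calb2, Ntng1, Syt17, Cartpt and the other lower genes was not tested.

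Lists of other cells of the tissue were examined in the same way. Of 19 tested microglial genes 17 had a positive change with a median of 0.29. At an unadjusted p under 0.05, 11 were higher, against 9.6% of all genes, P2ry12 with a log2 change of 0.46 ± 0.10 (SE, adjusted p 0.0625, edgeR). The times were separate for 10 of the 19, all higher at 24 h, against 8.49% of all genes, and the median was 0.15 in the libraries with Xist alone. Of 26 tested astrocyte genes 9 were higher and 1 lower at an unadjusted p under 0.05, against 9.6% and 11.8% of all genes. The median was 0.12, and the times were separate for the same numbers in each direction, against 8.49% and 8.43% of all genes. The glutamate transporter Slc1a2 had 33284 to 39504 normalised counts at 12 h and 49046 to 54550 at 24 h, a log2 change of 0.47 ± 0.09 (SE, adjusted p 0.0625, edgeR), whereas the GABA transporter Slc6a11 had 1643 to 3067 at 12 h and 990 to 1328 at 24 h (adjusted p 0.0625). EdgeR called 0 genes of these 2 lists. Of 19 tested interneuron genes only Calb2, a member of 2 lists, was called, and the median was -0.05. The 11 tested genes of choroid plexus and ependyma had a median of 0.17, which was -0.53 in the libraries with Xist alone, and the 4 of erythrocytes 0.29, with 0 called by edgeR in either.

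**Figure D4:**
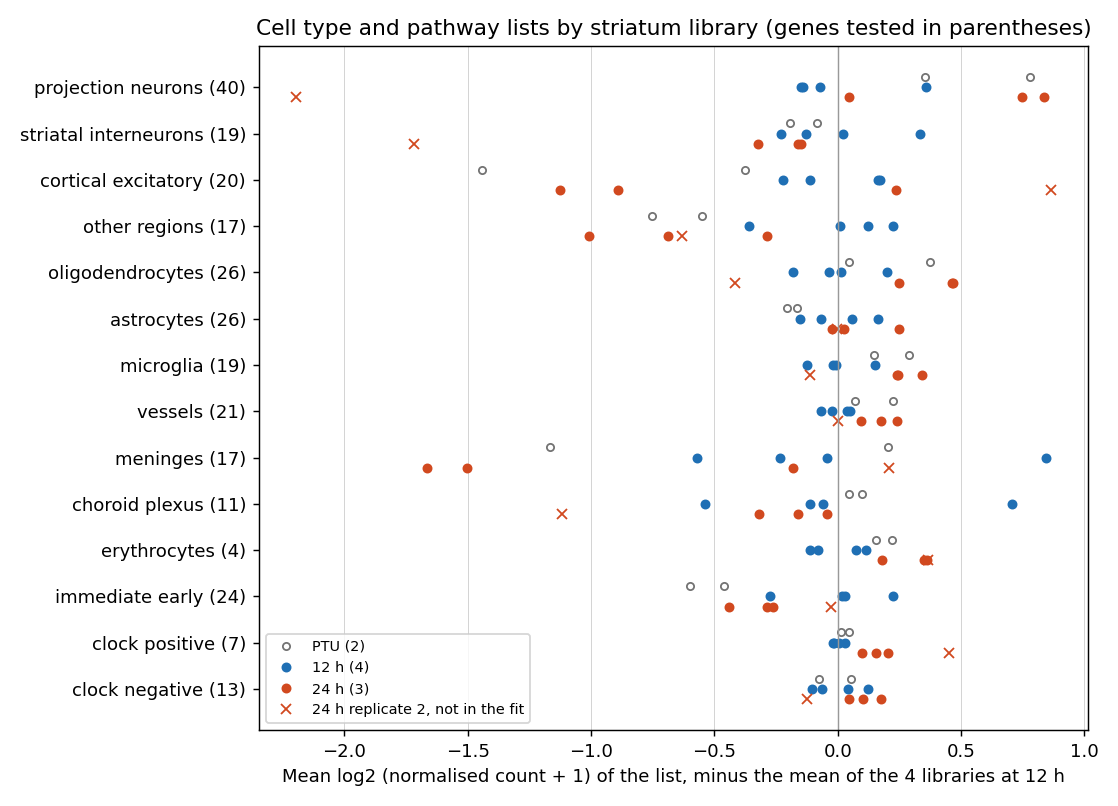
Mean log2 (normalised count + 1) of 14 gene lists in each striatum library, minus the mean of the 4 libraries at 12 h, with the number of genes tested in parentheses and symbols as for the genes above. For projection neurons and cortical neurons 24 h replicate 4 lies near the 12 h libraries and the other 2 lie apart, whereas all 3 lie above the 12 h libraries for oligodendrocytes and microglia.

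Of 7 genes that the study discusses (Thra, Thrb, Klf9, Stat5a, Hr, Trp53inp2 and Desi1) and of Gls2 and Cyp11a1, which were added to them, 0 were called by edgeR. Hr, the transcription cofactor HAIRLESS and a classical target of T3, had 245, 284, 258 and 295 normalised counts at 12 h and 255, 279 and 327 at 24 h. The 2 times overlapped in part, as 24 h replicate 4 stood above all 12 h libraries, and so did 24 h replicate 2 with 381. The log2 change was 0.07 (95% interval -0.18 to 0.32, adjusted p 0.755, edgeR), while the PTU libraries had 38.8 and 57.4. Gls2, a glutaminase, had the same order, with 14.7 and 15.8 with PTU, 76.5 ± 13.5 at 12 h (SD, n = 4) and 83.1 ± 12.6 at 24 h (SD, n = 3), and a log2 change of 0.11 (95% interval -0.28 to 0.49). Klf9, a Krüppel-like transcription factor, had 2796, 2863, 2681 and 2893 at 12 h and 3984, 3527 and 3304 at 24 h. All 3 later libraries were above the earlier ones, and so was 24 h replicate 2 with 3695, but the log2 change of 0.35 (95% interval 0.16 to 0.54) had an adjusted p of 0.0743 (edgeR). With PTU Klf9 had 1932 and 2012. It was one of the 1462 genes (9.6%) that were higher at an unadjusted p under 0.05.

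For Trp53inp2 and Desi1 the intervals of the log2 change ran from -0.36 to 0.07 and from -0.33 to 0.05, and for Stat5a from -0.38 to 0.81. Cyp11a1, the side-chain cleavage enzyme of steroid synthesis, had 24.5, 32.3, 25.4 and 27.3 normalised counts at 12 h and 38.1, 63.1 and 24.1 at 24 h, with an interval of -0.07 to 1.22, and its libraries overlapped through replicate 4. The receptor gene Thra had an interval of -0.48 to 0.15 and Thrb of 0.02 to 0.52 (adjusted p 0.541 and 0.210, edgeR). These intervals still allow changes of the sizes they span. Of 35 tested genes known or discussed as responsive to TH in brain, only Aldh1a3 was called, against 0.341% of all genes, and the median was 0.06. At an unadjusted p under 0.05, 9 were higher and 5 lower, against 9.6% and 11.8% of all genes. Of 21 tested genes of receptors, partners, transporters and deiodinases 0 were called by edgeR, and the median was 0.01. In this list 3 were higher and 4 lower at an unadjusted p under 0.05, against the same shares of all genes. Its TH transporters Slc7a8 and Slco1c1 had log2 changes of -0.39 ± 0.10 and 0.30 ± 0.10 (SE, adjusted p 0.0781 and 0.118, edgeR) with separate groups. The called gene Slco1a4, which can carry TH, was counted with the vessel genes and is not on this list.

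Genes that vary with activity and with the time of day were also examined. Of 24 tested immediate early genes, 10 were lower and 1 higher at an unadjusted p under 0.05, against 11.8% and 9.6% of all genes. The median was -0.36 and 0 were called by edgeR. Fos had 87.8, 142, 166 and 209 normalised counts at 12 h and 35.2, 47.6 and 82.3 at 24 h, with a log2 change of -1.47 ± 0.33 (SE, adjusted p 0.0646, edgeR). Btg2 had a change of -0.88 ± 0.16 (SE, adjusted p 0.0522). The lowest library at 12 h was for both genes replicate 1, and the median of the list was 0.03 in the libraries with Xist alone. The clock genes had a median of 0.19 over 7 genes, core activators and those that peak with them, Cry1 and Nfil3 included. The median was 0.17 over 13 repressors and outputs. These were 0.14 and 0.02 in the libraries with Xist alone, and 0.26 and 0.03 with 24 h replicate 2 kept. Per2 had 263, 223, 223 and 279 normalised counts at 12 h and 365, 362 and 332 at 24 h, with separate groups and a log2 change of 0.50 ± 0.11 (SE, adjusted p 0.0625, edgeR), and Cry1 had 0.51 ± 0.14 (SE, adjusted p 0.0890). Of the 13 repressors and outputs 8 had a positive change and 5 a negative one, Bhlhe40 with -0.39 ± 0.17 (SE, adjusted p 0.215, edgeR). Hour of the day and time after TH cannot be told apart.

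Of the 31 lists examined, 24 had 0 members called by edgeR. Lists of the respiratory chain (75 genes tested), the cytosolic ribosome (75), the mitochondrial ribosome (77), the proteasome (33), cholesterol synthesis (22), hexose use (26), the cell cycle (28) and the unfolded protein response (19) had medians between -0.05 and 0.08. Potassium channels had a median of -0.12 over 51 genes. At an unadjusted p under 0.05, 15 of them were lower and 8 higher, against 11.8% and 9.6% of all genes. Lists of insulin and FOXO signalling, where Bcl6 was the only call among 17 genes, of GABA receptors and of heat and cold response each had a median of -0.06, and those of glucocorticoid response and matrix between 0.01 and 0.02.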

How the data were processed

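The authors deposited 1 table of raw read counts per gene for striatum. Per their methods and the labels, RNA was prepared with RNeasy columns, sequencing on a NextSeq 500 followed library preparation with Lexogen's SENSE kit for total RNA, and reads were aligned with Bowtie2 2.2.6.2 to mm10, filtered on alignment quality and counted with htseqcount. The annotation release and the strand setting are not given in the sources used here. Gene symbols matched GENCODE M21, from which coordinates and biotypes were taken (GRCm38). The 14 rows whose symbol a spreadsheet had turned into a date held 0.146% to 0.166% of the counts of the 7 libraries. They were kept out of the tests, as were 604 genes outside chromosomes 1 to 19 with a mean above 10. The white adipose tissue table and the authors' other results were not used.

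The 7 libraries were fitted with edgeR 4.0.16 in R 4.3.3, using TMM factors of 0.981 to 1.03, no covariate, a two-sided quasi-likelihood F test and Benjamini-Hochberg adjustment over the 15237 genes tested. Calls needed an adjusted p under 0.05, whatever the fold. The SE of a log2 change is its size divided by the square root of F, and intervals are 95%. Calculations were tested on simulated data. DESeq2 1.42.0 and limma 3.58.1 (voom) were alternatives. Pairs of replicates gave a chi-square of 3.73 to 14.4 per degree of freedom, more than sampling of reads gives. Nothing in the labels says that replicates came from separate animals, so p-values measure only the spread between these libraries. The genes, gene lists and comparison were chosen with earlier results of these data known. Genes were named if they were among the 12 called genes with the largest rise or fall, the 10 with the smallest p, a called member of a list, or discussed by the study, with Gls2 and Cyp11a1 added. Mbp, Drd1 and the other uncalled list members, Cd9 and the other called genes with small changes were picked after their values had been seen. Promoter windows are those of RefSeq on GRCm38.p6.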

Additional observations from a re-analysis of the deposited data

Results flagged for a closer look

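The projection neuron list had a mean log2 level of 10.3 in 12 h replicate 1, against 9.79 to 9.87 in the other 12 h libraries, a gap that is large for a group of 4. That library is the one with Xist at 12 h. Hcn3 had 293 normalised counts in the same library, against 344 to 352 in the others. These were 2 of 92 quantities tested at 12 h, and chance gives such a gap in about 1 in 20 groups.

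The 24 h replicate 2 library, which was left out of the comparison, had 12586 normalised counts of Slc17a7, above the 1814 to 3509 of the PTU libraries, and 1490 of Neurod6, above 289 to 934.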

How the results depend on the processing

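The count of 52 genes (21 higher, 31 lower) moved by over 1.5 times in most alternatives that changed the libraries. DESeq2 called 803 genes (368 higher, 435 lower), 50 of them among the 52, and no filter on the mean gave 1094 (432 higher, 662 lower) over 28436 genes. Keeping 24 h replicate 2 gave 0 in all (0 higher, 0 lower). Sex of the library as a covariate gave 22 (0 higher) with 7 libraries and 3 (0 higher, 3 lower) with 9, and the libraries with Xist alone gave 23 (0 higher). Leaving out 1 library gave 0 to 1792 calls, 0 to 727 higher and 0 to 1065 lower. Leaving out 24 h replicates 2 and 4 and adding the PTU libraries, an alternative chosen after seeing the data, gave 1705 (807 higher, 898 lower), 51 of the 52 among them. The limma voom, RLE, filterByExpr and PTU-added fits gave 48, 53, 63 and 58 calls. The cause of these moves was not tested.

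Across genes, the residuals of the 12 h and 24 h libraries numbered 1, 3 and 4 correlated at r = 0.219, -0.018 and 0.12. No value for unpaired libraries was set beside these, so they cannot decide whether the numbers pair the libraries. A replicate block over these 6 libraries gave 51 calls, 5 higher and 46 lower, with 17 of the 52 among them. No called gene that the text names changed sign in any alternative that tested it. Among the uncalled genes, Hr (-0.0391) and Gls2 (-0.0294) turned negative without 24 h replicate 4, and were also negative when the PTU libraries were then added, as was Stat5a (-0.0041) with sex of the library as a covariate over 9 libraries. The median log2 change of all genes lay between -0.0205 and 0.0014 in every alternative. With 3 libraries at 24 h and about 9 M counts each, changes of under 0.48 on the log2 scale were not called.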
